A study of Mus musculus with 12 samples.

Results

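The coagulation and complement genes are 41 entries of the deposited expression tables, out of 24553 entries in all. They were taken by gene symbol from a list of 22 coagulation and fibrinolysis genes and 19 complement genes, and every listed symbol was found. Where a symbol stood in several entries, the one with the highest mean was used. Klkb1 shares its entry with Cyp4v3 and C4b shares its entry with C4a, a near copy, so these values cannot be assigned to 1 gene.

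Polyadenylated RNA was sequenced from 12 mouse livers or liver tumors in 4 groups of 3 libraries. KO tumors and WT tumors came from Setd2 knockout and wild-type males that received a single injection of the liver carcinogen diethylnitrosamine (DEN) at 25 mg/kg when 2 weeks old, and they were collected at an age of 8 months. KO livers and WT livers were normal liver of 8-month-old males of the same genotypes that received no DEN. Setd2 encodes the enzyme that places trimethylation on lysine 36 of histone H3. The titles call the knockout cKO, and the labels used here give neither the cells nor the driver of the deletion. A tumor differs from a normal liver both in being a tumor and in the DEN given, and these cannot be told apart. The labels do not say outright that each library is a separate animal, so the tests measure the spread between these samples.

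The liver secretes most clotting and complement proteins of the blood. In coagulation, proteases activate each other in sequence until thrombin cuts fibrinogen, a protein of 3 different chains, into fibrin, and plasmin later dissolves the clot. In complement, recognition molecules such as C1q and the mannose-binding lectins start a protease chain that splits C3, and the terminal components C5 to C9 then form a pore in the target membrane. Hepatocytes make most of these proteins, while C1q is made mainly by macrophages.

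Expression is given as FPKM (mapped fragments of an entry, divided by its transcript length and by the size of the library), a scale on which levels of different genes can be compared. Differences are on the log2(FPKM + 1) scale with their standard error (SE). They come from limma, a linear model with a variance shared across genes, and a gene was called at a Benjamini-Hochberg adjusted p below 0.05 over the 11671 entries tested. All 41 genes passed the filter of FPKM 1 in 3 libraries. Sequencing depth is unknown. FPKM sums per library ran from 423498 to 719538. Pearson's r between libraries across entries was 0.924 to 0.942 for KO tumors, 0.949 to 0.985 for WT tumors, 0.977 to 0.979 for KO livers and 0.982 to 0.986 for WT livers. Setd2 was at 1.66, 1.93 and 1.32 FPKM in KO livers, against 4.84, 3.84 and 4.70 FPKM in WT livers. In KO tumors it was at 3.14, 2.18 and 1.90 FPKM, against 4.40, 3.61 and 4.07 FPKM in WT tumors. The 12 hepatocyte markers were detected in every group, with a summed FPKM of 17592 to 38659 in KO tumors, 41640 to 54901 in WT tumors, 36127 to 41821 in KO livers and 41014 to 42382 in WT livers. Apoa1 weighs heavily in these sums, at 19940 to 27242 FPKM in WT tumors and 8808 to 11310 FPKM in WT livers. Ahsg, another of the markers, read 0 FPKM in WT tumor 1, against 10502 and 13711 FPKM in WT tumors 2 and 3. WT tumor 1 held the lowest sum of the WT tumors.

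Among the 22 coagulation genes the level ran from Fgb, with a mean of 3322 FPKM over the 12 libraries, down to F11, with 25.5 FPKM. Fgg (3245), Vtn (2372) and Fga (2037 FPKM) came next below Fgb. Among the 19 complement genes C3, the central component, was highest at 2841 FPKM, and Masp1 was lowest at 30.0 FPKM. The 3 fibrinogen chains alone held 29.4 to 34.6% of the summed coagulation FPKM in KO tumors and 37.7 to 46.6% in WT tumors. Their share was 30.1 to 44.6% in KO livers and 49.3 to 59.8% in WT livers. In both tissues every KO library lay below every WT library in this share.

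The genes did not vary evenly within a group. The coefficient of variation between the 3 libraries had a median of 27.0% for coagulation and 35.2% for complement genes in KO tumors, and of 12.9% and 22.6% in WT tumors. In KO livers these medians were 11.9% and 13.6%, and in WT livers 9.62% and 12.1%. Mbl2 varied most in KO tumors (118% of its mean) and F11 most among coagulation genes there (77.0%).

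In normal liver, Setd2 knockout was compared with wild type to see what the loss of the enzyme changes without a carcinogen. Of 22 coagulation genes 6 fell and 0 rose, namely the 3 fibrinogen chains, F11, Plg and Serpinf2. Of 19 complement genes C8b and C9 fell and Mbl2 rose. Over all entries tested 9.33% rose and 8.77% fell in the same fit, or 18.1% in either direction. The median difference was -0.13 in the coagulation class and -0.06 in the complement class, beside 0.03 over all entries, and 31 of the 41 genes lay below 0, beside 46.7% of all entries.

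All 3 fibrinogen chains fell in KO livers, to less than the level of any WT liver. Fgb, the beta chain, had 3394, 1838 and 1649 FPKM in KO livers, against 4013, 6279 and 7006 FPKM in WT livers. Fgg, the gamma chain, had 3563, 1985 and 1983 FPKM in KO livers, against 4078, 5368 and 6988 FPKM in WT livers. Fga, the alpha chain that carries fibrinopeptide A, had 1989.7, 1108 and 1101 FPKM in KO livers, against 2631, 3764 and 4510.3 FPKM in WT livers. KO liver 1 was the highest KO library and WT liver 1 the lowest WT library for each chain, and the groups did not overlap. The differences were -1.40 ± 0.29 for Fga (adjusted p = 0.0247), -1.37 ± 0.33 for Fgb (adjusted p = 0.0343) and -1.15 ± 0.29 for Fgg (adjusted p = 0.0404). Fga was at 0.532 to 0.667 times Fgb over the 12 libraries, with KO and WT overlapping in both tissues. Fgg was at 1.05 to 1.20 times Fgb in KO livers, against 0.855 to 1.02 times in WT livers, and at 0.991 to 1.03 times in KO tumors, against 0.845 to 0.976 times in WT tumors, so every KO library lay above every WT library of its tissue in this ratio. WT liver 1 was also low in serum amyloid A, which rises in the acute phase response, with 260.5 FPKM of Saa1, against 3458 and 7303 FPKM in WT livers 2 and 3. KO livers 1, 2 and 3 had 1419, 277 and 68.7 FPKM of Saa1, the same order as for Fgb. Across genotypes the order differed, since KO liver 1 lay above WT liver 1 in Saa1 but below it in Fgb. The part of the acute phase state in the fibrinogen difference was not tested.

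**Figure D1:**
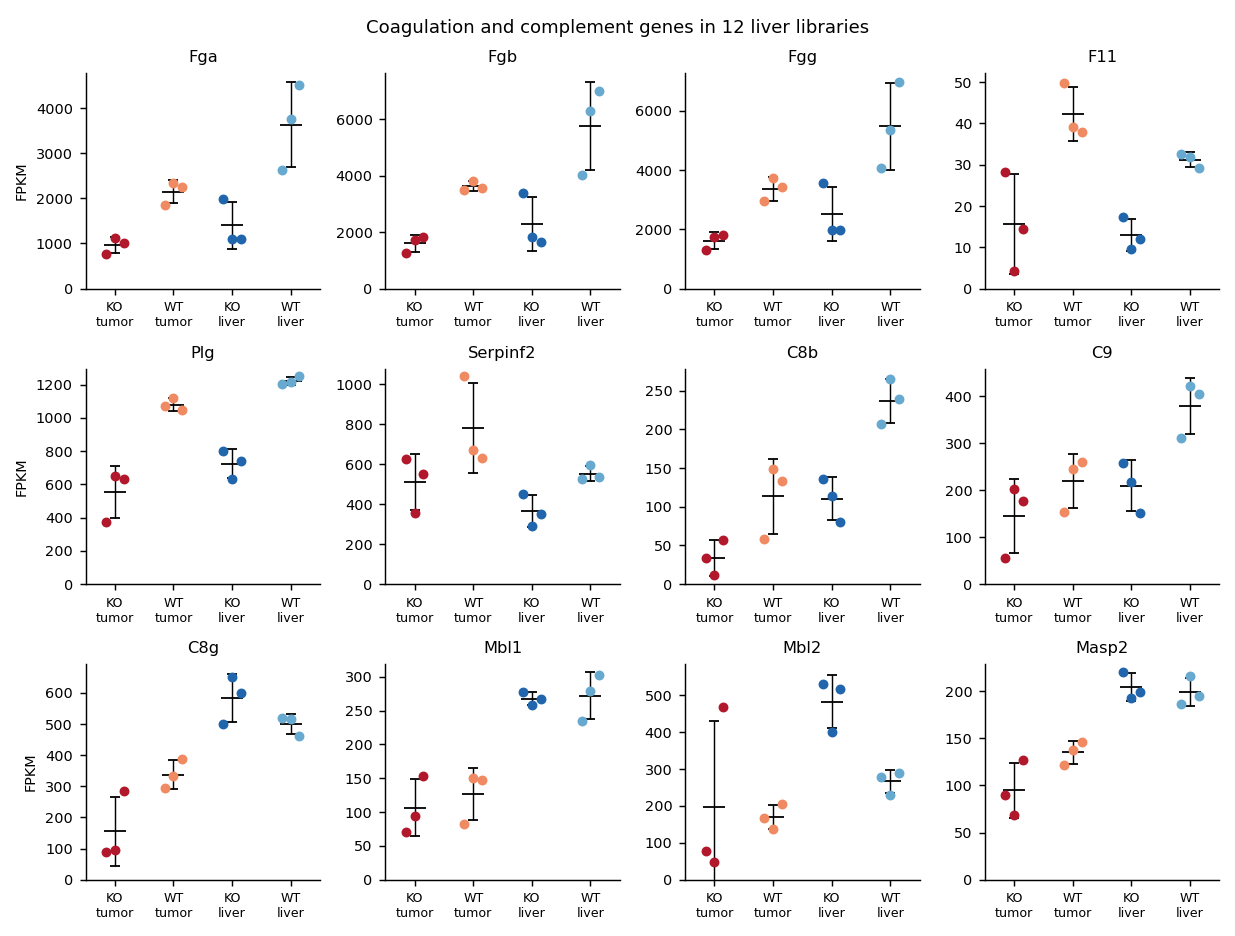
FPKM (linear axis from 0) of 12 coagulation and complement genes in each library, by group; each point is 1 library, the horizontal line the group mean and the bar 1 SD (n = 3). The 3 fibrinogen chains, F11, Plg and C8b were lower in every KO liver than in every WT liver, and Mbl2 was higher, with 401 to 532 FPKM in KO livers and 229.8 to 290.1 FPKM in WT livers.

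The fibrinogen genes are neighbours on chromosome 3 of GRCm38 (GENCODE vM21), with Fgg at 83007724 to 83015049 and Fga at 83026076 to 83033627 on the forward strand and Fgb at 83040141 to 83049863 on the reverse strand. The gaps between them are 11026 and 6513 bases. Their promoters are shown because the 3 genes moved together. Each sequence runs 5′ to 3′ from 250 bases before to 50 bases after the start of the gene in RefSeq on GRCm38.p6. Capitals mark matches, on either strand, to TTGCNNAA (C/EBP) and CTGGGAA (the interleukin-6 response element known from fibrinogen genes). None of the marked matches overlap. Fga lies at chr3:83025903-83026202 (+), Fgb at chr3:83049814-83050113 (-) and Fgg at chr3:83007474-83007773 (+).
Fga: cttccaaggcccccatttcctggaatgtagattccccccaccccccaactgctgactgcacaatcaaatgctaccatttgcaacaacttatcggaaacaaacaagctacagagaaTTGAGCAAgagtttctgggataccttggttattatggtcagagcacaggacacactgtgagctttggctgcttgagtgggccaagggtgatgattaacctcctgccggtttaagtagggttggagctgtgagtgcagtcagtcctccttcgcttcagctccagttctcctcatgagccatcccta
Fgb: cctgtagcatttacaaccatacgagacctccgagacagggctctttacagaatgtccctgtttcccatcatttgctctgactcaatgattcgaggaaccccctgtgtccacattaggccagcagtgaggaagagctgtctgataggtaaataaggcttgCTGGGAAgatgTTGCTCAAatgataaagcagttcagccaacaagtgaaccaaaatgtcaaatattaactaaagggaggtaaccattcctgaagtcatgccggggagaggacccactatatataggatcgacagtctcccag
Fgg: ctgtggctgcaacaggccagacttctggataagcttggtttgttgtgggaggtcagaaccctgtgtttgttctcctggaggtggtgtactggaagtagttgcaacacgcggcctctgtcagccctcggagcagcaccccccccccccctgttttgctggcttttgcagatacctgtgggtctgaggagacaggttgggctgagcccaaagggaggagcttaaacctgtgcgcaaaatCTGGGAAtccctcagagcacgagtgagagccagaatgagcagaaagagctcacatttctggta

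Fgb held both motifs, with CTGGGAA starting 91 bases and the C/EBP motif 80 bases before the start. Fga held the C/EBP motif 135 bases before it, and Fgg held CTGGGAA 13 bases before it. Of 32851 promoters of this length in the RefSeq table, 10.8% held TTGCNNAA and 11.1% CTGGGAA on either strand. Promoters were matched for 31 of the 41 genes, of which 10 held TTGCNNAA and 6 CTGGGAA. The motif of HNF4, CAAAGTNCA, was in 2 of them, Serpind1 and F9, and in 1.41% of all promoters. These letters describe the windows and say nothing of whether a factor was bound.

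In the contact system, which starts clotting on negatively charged surfaces, F11 fell in KO livers. F11, the precursor of factor XIa that activates factor IX, had 17.4, 9.59 and 12.1 FPKM in KO livers, against 32.6, 31.9 and 29.2 FPKM in WT livers. All KO livers were lower than all WT livers (-1.24 ± 0.20, adjusted p = 0.0141). Its neighbour on chromosome 8, Klkb1 (plasma prekallikrein), ends 4.66 kb before the start of F11 on the same strand and was not called. The entry shared by Cyp4v3 and Klkb1 had 309.6, 259 and 265 FPKM in KO livers, against 256, 225 and 215 FPKM in WT livers, a difference of 0.26 ± 0.12 (adjusted p = 0.171). F11 was at 0.0370 to 0.0561 times the Klkb1 entry in KO livers and at 0.127 to 0.142 times in WT livers. Kng1, the kininogen that carries prekallikrein, had 1188, 871 and 1164 FPKM in KO livers, against 1081, 1363 and 1501 FPKM in WT livers (-0.29 ± 0.18, adjusted p = 0.284). F12, the first protease of the system, averaged 287 ± 23.3 FPKM in KO livers and 295 ± 18.0 FPKM in WT livers (SD, n = 3 each). The promoter of F11, at chr8:45261982-45262281 (-) and printed as above because the gene moved apart from its neighbour, held a single C/EBP match, which begins 17 bases before the start.
F11: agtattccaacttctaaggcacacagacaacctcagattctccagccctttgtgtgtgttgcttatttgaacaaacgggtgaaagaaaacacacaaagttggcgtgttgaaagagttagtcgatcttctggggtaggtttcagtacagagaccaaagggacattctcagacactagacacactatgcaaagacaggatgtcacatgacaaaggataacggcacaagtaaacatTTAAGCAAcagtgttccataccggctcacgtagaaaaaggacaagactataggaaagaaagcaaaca

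The genes of fibrin breakdown were lower in part. Plg encodes plasminogen, the precursor of the enzyme that dissolves fibrin. It had 799, 629.6 and 743 FPKM in KO livers, against 1203, 1213 and 1251 FPKM in WT livers, a fall by 0.76 ± 0.13 on the log2 scale (adjusted p = 0.0158). Serpinf2 encodes the main plasmin inhibitor. It had 453, 292 and 351 FPKM in KO livers, against 527, 596 and 534 FPKM in WT livers, a fall by 0.62 ± 0.17 (adjusted p = 0.049). Neither gene's groups overlapped. Cpb2, which protects fibrin from plasmin, and Hrg, a plasminogen-binding protein, had differences of -0.61 ± 0.20 (adjusted p = 0.069) and -0.42 ± 0.12 (adjusted p = 0.0521). Vtn, vitronectin, an adhesive protein of plasma and matrix, had 2582, 1947 and 2799 FPKM in KO livers, against 2334, 2804 and 2810.01 FPKM in WT livers, with the groups overlapping.

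The vitamin K dependent proteases and the inhibitors of clotting did not pass in normal liver. F2, prothrombin, had 1102, 1014 and 1044 FPKM in KO livers, against 1054, 1122 and 1114 FPKM in WT livers (-0.06 ± 0.11, adjusted p = 0.722). F9 and F10, which form successive steps of the sequence, differed by -0.14 and 0.04. F7, the partner of tissue factor, had a difference of 0.48 ± 0.17 (adjusted p = 0.0881), with every KO liver above every WT liver, although its neighbour F10 lies 1498 bases away. F5, the cofactor of factor Xa, differed by -0.21. Serpinc1, antithrombin, had 1544, 1398 and 1719 FPKM in KO livers, against 1698, 1740.4 and 1650.5 FPKM in WT livers. Serpind1 (heparin cofactor II), Proc (protein C) and F13b, the carrier chain of the enzyme that crosslinks fibrin, differed by -0.13, -0.06 and 0.09. F13b had 83.2, 85.1 and 70.9 FPKM in KO livers, against 73.4, 67.8 and 84.1 FPKM in WT livers. Serping1, which inhibits C1 as well as kallikrein and factor XIIa and is counted with coagulation here, had 728, 572 and 658 FPKM in KO livers, against 520.2, 654 and 718 FPKM in WT livers.

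In complement, the pore-forming end of the pathway held both falls. C8b, the beta chain of C8, had 136, 114 and 80.8 FPKM in KO livers, against 207, 264 and 239 FPKM in WT livers (-1.12 ± 0.20, adjusted p = 0.0179). C9, the subunit that polymerises into the pore, had 258, 219 and 151 FPKM in KO livers, against 312, 423 and 406 FPKM in WT livers (-0.88 ± 0.22, adjusted p = 0.0378). For both, every KO liver lay below every WT liver. C8a, the alpha chain, differed by -0.44 ± 0.14 (adjusted p = 0.0697) and C6 by -0.35 ± 0.11 (adjusted p = 0.0721), again with no overlap. Hc, which encodes C5, differed by -0.28. C8g, the gamma chain that belongs to the lipocalins, had 499, 651 and 600.5 FPKM in KO livers, against 519.9, 518 and 462 FPKM in WT livers (0.22 ± 0.14, adjusted p = 0.283).

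C8a and C8b lie side by side on chromosome 4, some 11.1 kb apart and pointing toward each other, and C8b was at 0.439 to 0.556 times C8a in KO livers, against 0.747 to 0.902 times in WT livers.

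Mbl2, a mannose-binding lectin that recognises microbial sugars, was the single gene of the 41 that rose in KO livers. It had 532, 401 and 517 FPKM in KO livers, against 279, 229.8 and 290.1 FPKM in WT livers, with no overlap (0.85 ± 0.16, adjusted p = 0.0187). Mbl1, the other mannose-binding lectin, had 278, 258 and 267 FPKM in KO livers, against 235, 279 and 302 FPKM in WT livers (-0.02 ± 0.13, adjusted p = 0.93). The proteases that act with them, Masp1 and Masp2, differed by -0.01 and 0.04. C3 had 2944, 1948 and 4000.4 FPKM in KO livers, against 2543, 3048 and 3346 FPKM in WT livers (-0.06 ± 0.27, adjusted p = 0.888). The entry shared by C4a and C4b, Cfb (factor B) and C2 differed by -0.58, -0.38 and 0.28, with adjusted p from 0.0613 to 0.171. Cfi, the protease that inactivates C3b and C4b, had 374, 272 and 271 FPKM in KO livers, against 382, 400.1 and 472 FPKM in WT livers (-0.46 ± 0.16, adjusted p = 0.0868). C4bp, its cofactor, differed by -0.06. The C1q chains had 34.9 to 60.6 FPKM in KO livers and 35.6 to 64.1 FPKM in WT livers, with differences from -0.15 to 0.17.

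**Figure D2:**
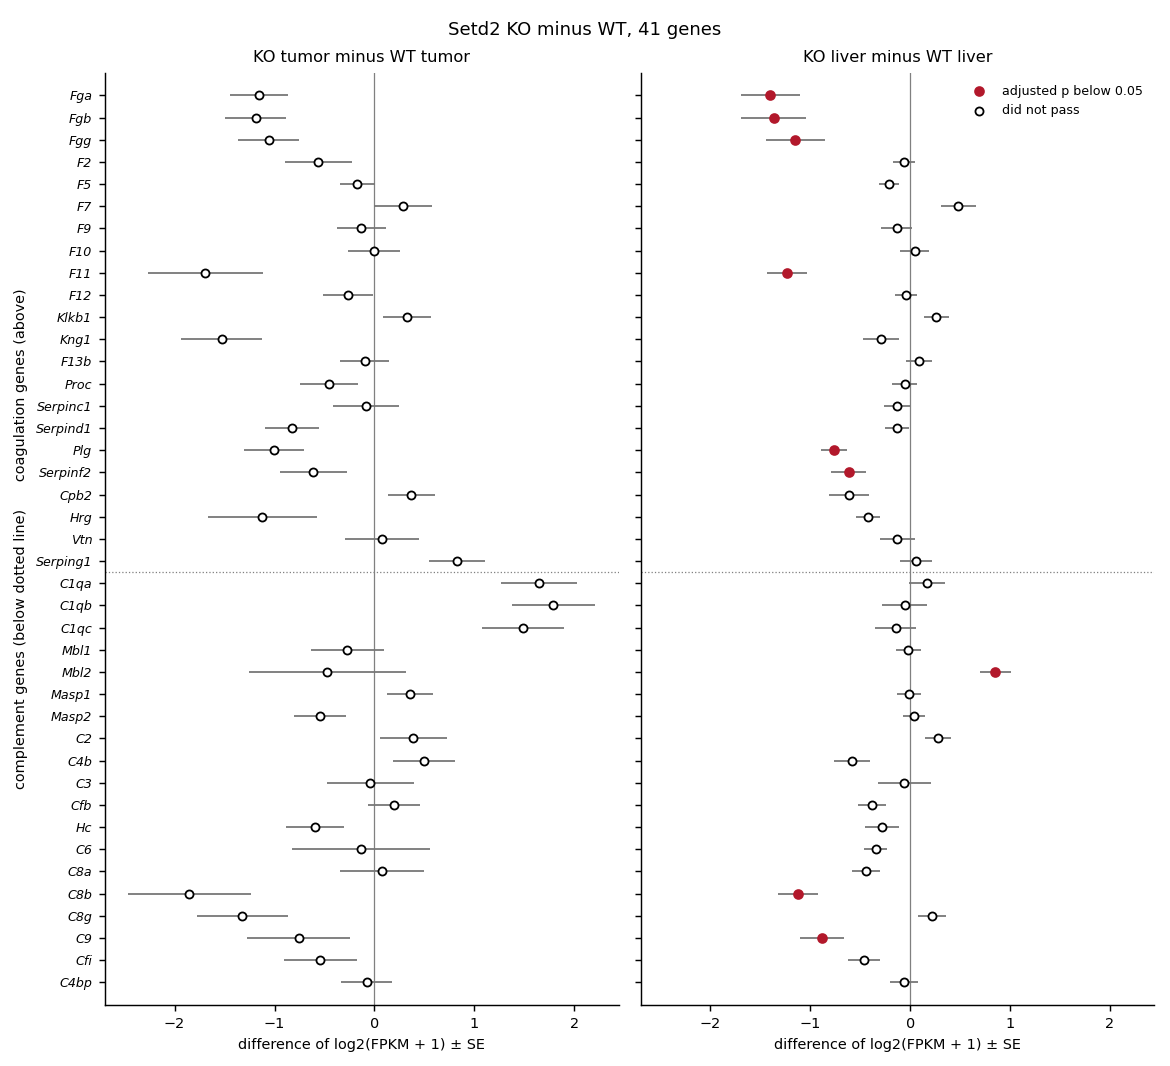
Difference of log2(FPKM + 1) between Setd2 KO and WT with its SE (n = 3 libraries a group), for all 41 genes in tumors (left) and normal liver (right); filled points passed an adjusted p below 0.05 and open points did not. In normal liver 8 genes passed below 0 and Mbl2 above 0, and in tumors none passed, with values from -1.85 for C8b to 1.79 for C1qb.

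In normal liver the groups did not overlap for 18 of the 41 genes, 3 with KO livers higher and 15 with KO livers lower, beside 21.9% and 20.7% of all entries. The 9 calls rested in part on single libraries. Without WT liver 3 none of the 41 passed, while 132 entries rose and 108 fell over the whole table. Without WT liver 2 only Plg and F11 passed, and without KO liver 2 or 3 the fibrinogen chains did not. Calls fell over the whole table too, from 1089 rises and 1024 falls with all libraries. Without WT liver 2 there were 323 rises and 298 falls. Without KO liver 2 or 3 there were 480 and 373 rises and 301 and 281 falls.

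Tumors were compared by genotype to see what the knockout changes once tumors have formed. In this fit 0 of the 41 genes passed with limma, and 9 of 11671 entries did so (0.0771%). At an unadjusted p below 0.05 there were 13 of the 41 genes, beside 17.6% of all entries. On the low side these were the fibrinogen chains, the contact genes F11 and Kng1, Plg, Serpind1, C8b and C8g, and on the high side the C1q chains and Serping1. The groups did not overlap for 4 genes with KO tumors higher (13.8% of all entries) and for 10 with KO tumors lower (10.1% of all entries). The median difference was -0.36 for coagulation and -0.08 for complement, beside 0.02 over all entries, and 28 of the 41 genes lay below 0, beside 48.1%. With each library scaled to a common sum (TPM, transcripts scaled to the same total) these medians were -0.25 and 0.04, beside 0.13.

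Fibrinogen was lower in every KO tumor than in every WT tumor, as it was in normal liver, in libraries that this comparison does not share. Fgb had 1277, 1709.9 and 1830.3 FPKM in KO tumors, against 3490.4, 3822 and 3556 FPKM in WT tumors (-1.19 ± 0.30, adjusted p = 0.128). Fgg had 1311, 1745 and 1815 FPKM in KO tumors, against 2951, 3731 and 3418 FPKM in WT tumors (-1.06 ± 0.31, adjusted p = 0.156). Fga had 769.9, 1121 and 1011 FPKM in KO tumors, against 1858, 2335 and 2241 FPKM in WT tumors (-1.16 ± 0.29, adjusted p = 0.126). The KO tumors held the lowest and the WT livers the highest Fgb of the 12 libraries, and KO livers 2 and 3 lay within the range of the KO tumors or next to it.

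F11 had 28.2, 4.24 and 14.4 FPKM in KO tumors, against 49.9, 39.2 and 37.9 FPKM in WT tumors (-1.69 ± 0.57, adjusted p = 0.203). Kng1 had 762, 653 and 1169 FPKM in KO tumors, against 3869.6, 1909.98 and 1904 FPKM in WT tumors (-1.53 ± 0.41, adjusted p = 0.136). Plg had 373, 653 and 629.9 FPKM in KO tumors, against 1069, 1121 and 1045 FPKM in WT tumors (-1.01 ± 0.30, adjusted p = 0.163). WT tumor 1 held the highest Kng1 of all libraries, and none of these groups overlapped. Serpind1 averaged 261 ± 52.0 FPKM in KO tumors and 464 ± 99.4 FPKM in WT tumors (SD, n = 3 each, adjusted p = 0.188). Serpinf2 had 628, 358 and 553 FPKM in KO tumors, against 1039.7, 673 and 634 FPKM in WT tumors, a narrow separation (-0.61 ± 0.33, adjusted p = 0.4). Hrg overlapped between the groups, with 154 to 575 FPKM in KO tumors and 543 to 1155 FPKM in WT tumors. The other coagulation genes, F2, F5, F7, F9, F10, F12, F13b, Klkb1, Proc, Serpinc1, Cpb2 and Vtn, overlapped as well, with differences from -0.56 (F2) to 0.37 (Cpb2). Hepatocyte markers were lower in KO tumors as a group: 10 of 12 lay below 0 between tumors, with a median of -0.71 and 0 called. Their summed FPKM was 17592 to 38659 in KO tumors, below the 41640 to 54901 in WT tumors. Ahsg lay above 0, with 0 FPKM in WT tumor 1 against 10502 and 13711 FPKM in WT tumors 2 and 3. By library the order differed from fibrinogen. KO tumor 2 had the lowest marker sum, but more summed fibrinogen (4576 FPKM) than KO tumor 1 (3358 FPKM). The part of these markers in the tumor differences was not tested.

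Serping1 was the coagulation gene that stood on the other side. It had 779.6, 577 and 946 FPKM in KO tumors, against 365, 499.8 and 420.2 FPKM in WT tumors, with no overlap (0.82 ± 0.28, adjusted p = 0.206).

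The 3 chains of C1q, which binds antibody on a target and starts the classical pathway, were higher in every KO tumor than in every WT tumor. C1qa had 102, 201 and 131 FPKM in KO tumors, against 70.6, 29.9 and 39.4 FPKM in WT tumors (1.65 ± 0.38, adjusted p = 0.112). C1qb had 111, 204 and 128 FPKM in KO tumors, against 74.3, 26.6 and 33.5 FPKM in WT tumors (1.79 ± 0.42, adjusted p = 0.114). C1qc had 79.0, 157 and 109 FPKM in KO tumors, against 67.9, 25.8 and 32.9 FPKM in WT tumors (1.49 ± 0.41, adjusted p = 0.143). KO tumor 2 was highest and WT tumor 1 was the highest of its group for each chain. The chains are encoded within a short stretch of chromosome 4 (C1qb at 136880129 to 136886187, C1qc at 136889804 to 136893065 and C1qa at 136895917 to 136898803, reverse strand). C1qb was at 0.976 to 1.09 times C1qa in KO tumors and 0.851 to 1.05 times in WT tumors, and at 0.795 to 0.946 times in KO livers, below all WT livers (0.987 to 1.09 times). C1qc was at 0.776 to 0.829 times C1qa in KO tumors, against 0.837 to 0.962 times in WT tumors, and at 0.738 to 0.801 times in KO livers, against 0.899 to 0.980 times in WT livers, with no overlap in either tissue.

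Macrophage markers, like C1q, were higher in KO tumors as a group. The summed FPKM of 14 markers of macrophages and Kupffer cells was 490.2 to 608 in KO tumors, 148 to 408 in WT tumors, 191 to 276 in KO livers and 215 to 331 in WT livers, and none was at 0 in every library. WT tumor 1 had the highest sum among WT tumors, as it had for C1q. Within KO tumors the order differed. KO tumor 2 had the most summed C1q (561 FPKM) but the lowest marker sum (490.2 FPKM). KO tumor 3 had the highest marker sum (608 FPKM), with 368.5 FPKM of C1q. In the tumor comparison 12 of the 14 lay above 0, with a median of 0.89, and 0 passed. Clec4f, a marker of resident Kupffer cells, was at 12.5, 2.55 and 89.7 FPKM in KO tumors, against 54.5, 10.5 and 11.8 FPKM in WT tumors. In bulk tissue a change in the number of cells of a type and a change in RNA per cell cannot be told apart, and the part of macrophages in the C1q difference was not tested.

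**Figure D3:**
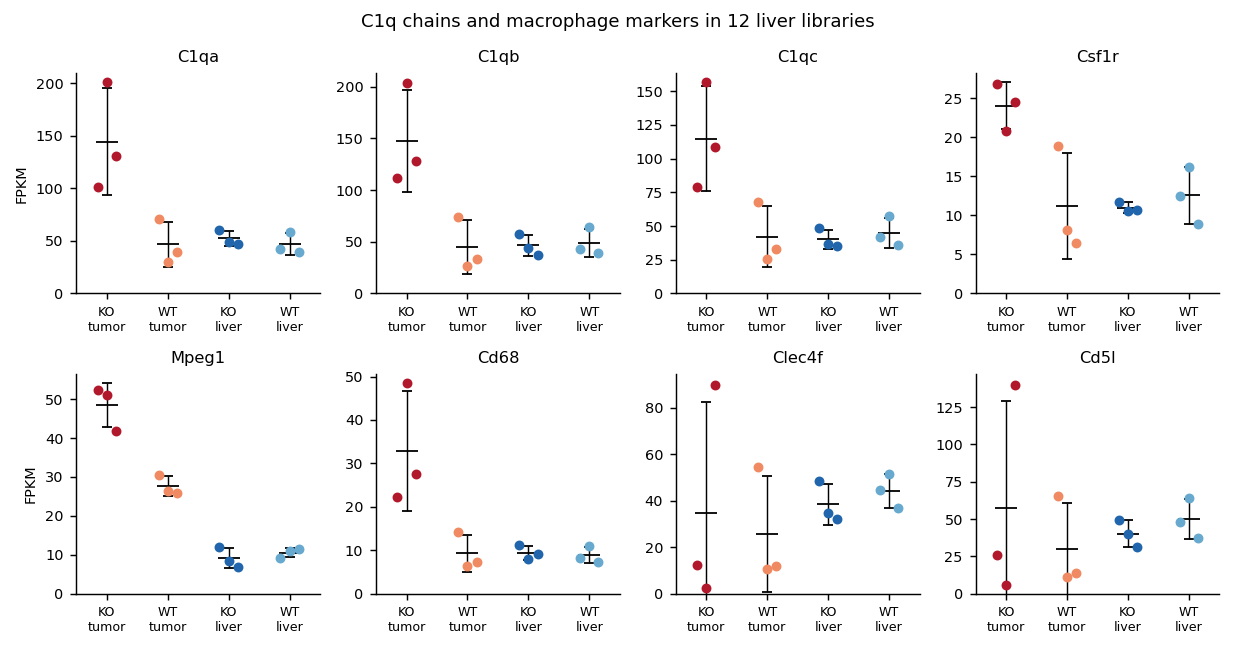
FPKM (linear axis from 0) of the 3 C1q chains and 5 macrophage or Kupffer cell markers in each library, by group; each point is 1 library, the line the group mean and the bar 1 SD (n = 3). C1q, Csf1r, Mpeg1 and Cd68 were higher in every KO tumor than in every other library, while Clec4f and Cd5l ranged from 2.55 to 89.7 FPKM and from 5.85 to 139.7 FPKM within KO tumors.

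The terminal components split again. C8b had 33.6, 11.5 and 57.5 FPKM in KO tumors, against 58.0, 149 and 133 FPKM in WT tumors (-1.85 ± 0.61, adjusted p = 0.194), a separation that WT tumor 1 left narrow. C8g had 89.7, 93.9 and 283 FPKM in KO tumors, against 294, 332 and 387 FPKM in WT tumors (-1.32 ± 0.46, adjusted p = 0.207). C8a overlapped, with 149 to 217 FPKM in KO tumors and 87.1 to 243 FPKM in WT tumors (0.07 ± 0.42). C8b was thus at 0.0769 to 0.265 times C8a in KO tumors, against 0.549 to 0.665 times in WT tumors. Hc, C6 and C9 overlapped, with differences of -0.60, -0.14 and -0.76. Mbl2 ranged from 47.2 to 467 FPKM in KO tumors, with KO tumor 3 far above the others, against 139 to 204 FPKM in WT tumors. C3 had 1466, 2844 and 4011 FPKM in KO tumors, against 2303, 2646 and 2989.8 FPKM in WT tumors. Mbl1, Masp1, Masp2, C2, C4b, Cfb, Cfi and C4bp overlapped too, with differences from -0.54 to 0.50.

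The choice of fit decided the count of calls between tumors. When all 12 libraries were fitted together, which shares 1 estimate of the spread, Serping1 and the 3 C1q chains rose and Serpind1, Kng1, Plg, C8g, Fga, Fgb, C8b and F11 fell in KO tumors. That fit called 697 entries up and 320 down over the whole table.

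Coagulation was set against complement within each library, so that a scale factor of the library cancels. The mean log2(FPKM + 1) of each class was taken relative to WT livers, and the complement mean was subtracted from the coagulation mean. This difference was 0.02, -0.45 and -0.38 in KO tumors, against 0.34, 0.14 and 0.07 in WT tumors. It was -0.16, -0.26 and -0.13 in KO livers, against -0.02, -0.06 and 0.07 in WT livers. In both tissues every KO library lay below every WT library, so coagulation stood lower against complement with the knockout. Coagulation genes made up 2.47 to 2.70% of a library's summed FPKM in KO tumors and 3.51 to 4.45% in WT tumors, and 2.14 to 2.79% in KO livers and 3.39 to 4.35% in WT livers. Complement genes made up 1.14 to 1.31% in KO tumors and 1.12 to 1.21% in WT tumors, and 0.900 to 1.12% in KO livers and 1.07 to 1.17% in WT livers.

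A few genes carried the contrast between the classes. Without the 3 fibrinogen chains the difference was -0.09 to 0.07 in KO livers and -0.06 to 0.03 in WT livers, and without fibrinogen and C1q it was 0.09 to 0.58 in KO tumors and 0.12 to 0.65 in WT tumors. The groups overlapped in both cases. As a share of the library, the other 19 coagulation genes still stood lower, at 1.68 to 1.91% in KO tumors and 1.92 to 2.77% in WT tumors, and at 1.38 to 1.54% in KO livers and 1.72 to 1.75% in WT livers. No test was made of these class values, since the genes were chosen with earlier results known.

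**Figure D4:**
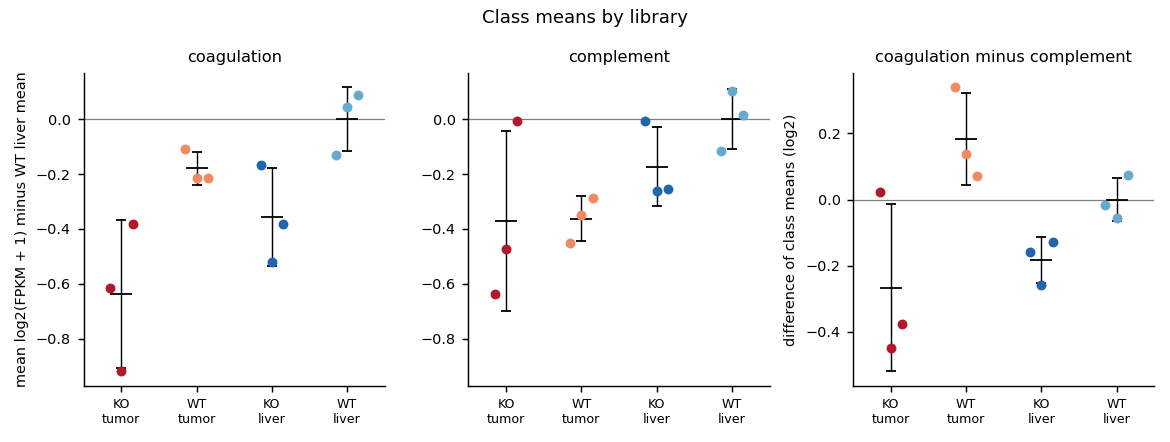
Mean log2(FPKM + 1) of the coagulation genes (left), of the complement genes (middle), each relative to the WT liver mean, and their difference (right); each point is 1 library, the line the group mean and the bar 1 SD (n = 3). In the right panel KO tumors run from -0.45 to 0.02 below WT tumors at 0.07 to 0.34, and KO livers from -0.26 to -0.13 below WT livers at -0.06 to 0.07.

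Tumors were compared with normal liver within each genotype. In KO mice C1qa, C1qb and C1qc rose, while Mbl1, C8g, Masp2 and the Klkb1 entry fell. Of the 41 genes 31 lay below 0, beside 51.4% of all entries, and the groups did not overlap for 4 with tumors higher and 7 with tumors lower, beside 21.3% and 19.8%. The calls are 3 of 41 genes up and 4 down, beside 9.09% of all entries up and 5.17% down, or 14.3% in either direction. In WT mice Mbl1, Mbl2, Masp2, C8g and the Klkb1 entry fell and none rose, beside 8.01% of all entries up and 8.96% down, or 17% in either direction. There too 31 of the 41 genes lay below 0, beside 54.1%, and the groups did not overlap for 6 with tumors higher and 18 with tumors lower, beside 18.5% and 23.8%. The comparisons within KO and within WT share no library with each other, but each shares its libraries with the comparisons by genotype. Class medians moved with the scaling: in KO mice they were -0.39 for coagulation and -0.15 for complement beside -0.02 over all entries, and with TPM 0.04 and 0.28 beside 0.37. In WT mice they were -0.25 and -0.40 beside -0.04, and with TPM 0.05 and -0.10 beside 0.24. Of the 12 hepatocyte markers 10 lay below 0 in KO mice, beside 51.4%, with a median of -1.29 and 0 called. In WT mice 11 of the 12 lay below 0, beside 54.1%, with a median of -1.11. Ahsg is counted below 0 there with 0 FPKM in WT tumor 1. It had 10502 and 13711 FPKM in WT tumors 2 and 3, above the 6810 to 7420 FPKM of WT livers. Of the 12 markers 5 were called down and 1 up in WT mice, beside 8.96% and 8.01% of all entries. Their part in the tumor against liver differences was not tested.

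Of the 4 lectin pathway genes of complement 2 fell in KO tumors and 3 in WT tumors. Mbl1 had 70.7, 94.8 and 153 FPKM in KO tumors, against 278, 258 and 267 FPKM in KO livers, with no overlap (-1.40 ± 0.30, adjusted p = 0.028). In WT mice it had 82.0, 149.7 and 147 FPKM in tumors, against 235, 279 and 302 FPKM in livers, a fall by 1.15 ± 0.25 (adjusted p = 0.0251). Tumors and livers did not overlap in either genotype. Masp2, the protease that cleaves C4 and C2, had 89.7, 68.8 and 126 FPKM in KO tumors, against 221, 193 and 199 FPKM in KO livers (-1.14 ± 0.26, adjusted p = 0.0322). It had 122, 137 and 146 FPKM in WT tumors, against 187, 215 and 195 FPKM in WT livers (-0.56 ± 0.13, adjusted p = 0.0278). Its call was lost with TPM in both genotypes. Mbl2 had 78.8, 47.2 and 467 FPKM in KO tumors, against 532, 401 and 517 FPKM in KO livers, an overlap made by KO tumor 3 (-1.98 ± 0.77, adjusted p = 0.122). It had 166, 139 and 204 FPKM in WT tumors, against 279, 229.8 and 290.1 FPKM in WT livers (-0.66 ± 0.18, adjusted p = 0.0472, lost with TPM). Masp1 had differences of -0.14 in KO and -0.51 in WT mice.

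The C1q chains rose in KO tumors against KO livers, and whether this differs from WT mice is asked by the interaction. C1qb, at 111 to 204 FPKM in KO tumors and 37.6 to 57.3 FPKM in KO livers, rose by 1.62 ± 0.29 (adjusted p = 0.0176). C1qc rose by 1.46 ± 0.29 (adjusted p = 0.0231) and C1qa by 1.40 ± 0.28 (adjusted p = 0.0242), without overlap of the groups. In WT mice the 3 chains differed by -0.22 to -0.08 between tumors and livers. Of the 14 macrophage markers Csf1r, Cd68, Lyz2, Mpeg1 and Ctss rose in KO tumors and 0 fell, beside 9.09% and 5.17% of all entries. In KO mice 5 of the 14 lay below 0, beside 51.4%, down to -1.25. In WT tumors Mpeg1, Cx3cr1 and Ccr2 rose and Cd163 and Timd4 fell, beside 8.01% and 8.96% of all entries. There 9 of the 14 lay below 0, beside 54.1%.

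Among terminal components C8g fell in tumors of both genotypes. The KO tumors had 89.7, 93.9 and 283 FPKM, against 499, 651 and 600.5 FPKM in KO livers (-2.11 ± 0.45, adjusted p = 0.0282). The WT tumors had 294, 332 and 387 FPKM, against 519.9, 518 and 462 FPKM in WT livers (-0.57 ± 0.15, adjusted p = 0.0433, lost with TPM). C8b had differences of -1.89 ± 0.54 in KO mice (adjusted p = 0.0569) and -1.16 ± 0.34 in WT mice (adjusted p = 0.0587), with tumors below livers in both and no overlap. C9 differed by -0.69 in KO mice and by -0.81 in WT mice (adjusted p = 0.0564). C8a differed by -0.26 and -0.78, C6 by -0.19 and -0.40, and Hc by -0.21 and 0.10.

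In coagulation the Klkb1 entry was the single fall. It had 178, 121 and 163 FPKM in KO tumors, against 309.6, 259 and 265 FPKM in KO livers (-0.86 ± 0.23, adjusted p = 0.0485, lost with TPM). It had 97.5, 136 and 134 FPKM in WT tumors, against 256, 225 and 215 FPKM in WT livers (-0.93 ± 0.17, adjusted p = 0.0142). F11 beside it had differences of -0.04 ± 0.58 in KO mice and 0.42 ± 0.14 in WT mice (adjusted p = 0.0762), where every WT tumor lay above every WT liver. Kng1 was at 1904 to 3869.6 FPKM in WT tumors, above all WT livers (0.89 ± 0.31, adjusted p = 0.0934), and at 653 to 1169 FPKM in KO tumors, overlapping KO livers (-0.35 ± 0.32). The fibrinogen chains differed by -0.58 to -0.45 in KO mice and by -0.73 to -0.63 in WT mice, and none passed.

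**Figure D5:**
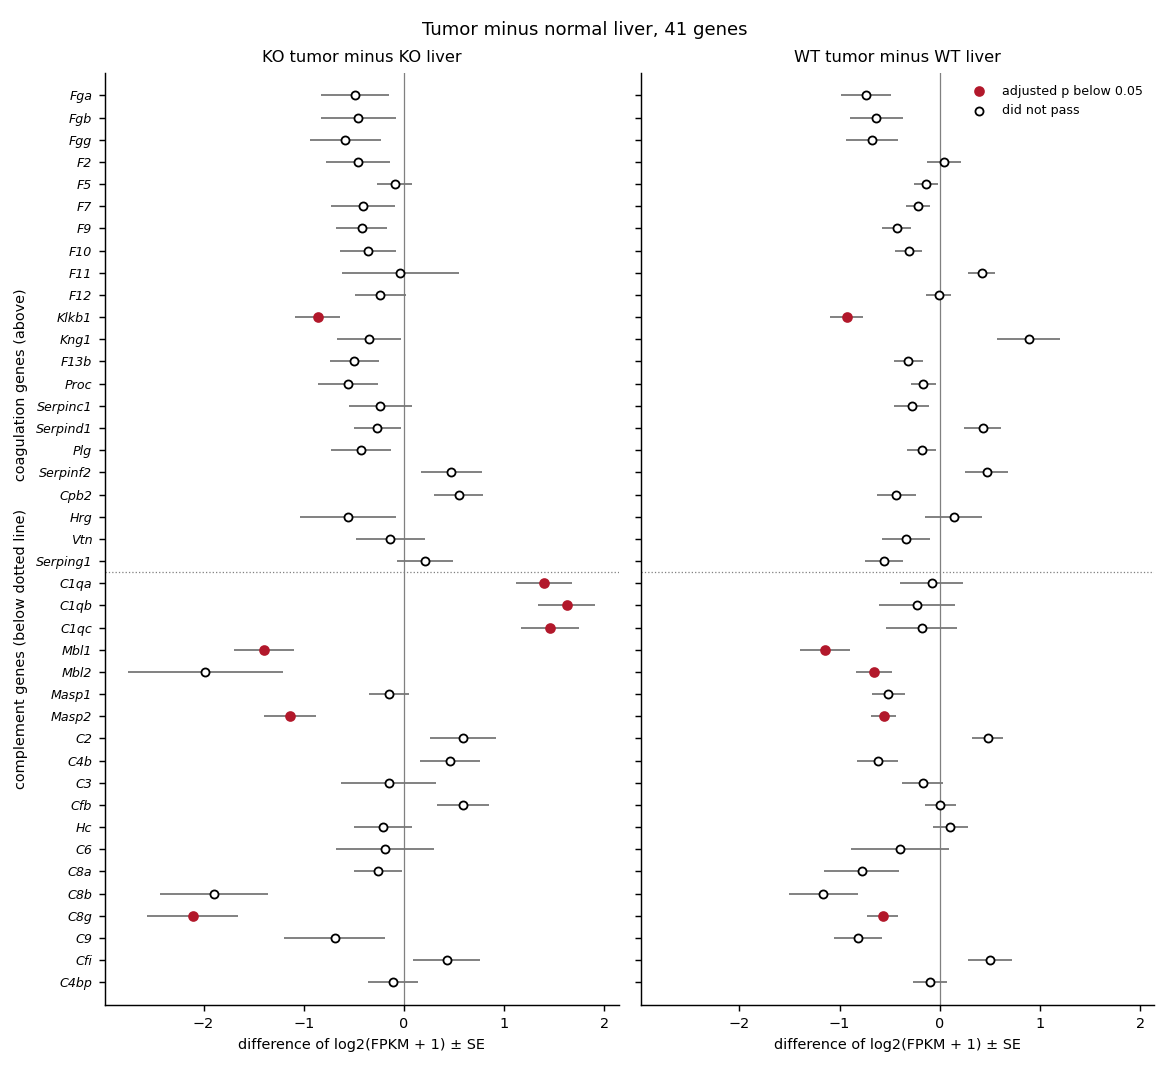
Difference of log2(FPKM + 1) between tumor and normal liver with its SE (n = 3 libraries a group), for all 41 genes in KO mice (left) and WT mice (right); filled points passed an adjusted p below 0.05 and open points did not. Mbl1, Masp2, C8g and Klkb1 passed below 0 in both genotypes, and the 3 C1q chains passed above 0 in KO mice, at 1.40 to 1.62.

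These calls depended on single libraries, as did the calls over the whole table. In KO mice none of the 41 passed without any 1 of the 3 KO livers, and without KO tumor 1 or KO tumor 2 only the C1q chains did. With all libraries 1061 of 11671 entries rose and 603 fell. Without KO liver 1, 2 or 3 there were 232, 110 and 110 rises and 75, 28 and 19 falls. Without KO tumor 1 or 2 there were 402 and 770 rises and 128 and 275 falls. In WT mice only the Klkb1 entry passed without WT liver 1 or 2, and none without WT liver 3. With all libraries 935 entries rose and 1046 fell. Without WT liver 1, 2 or 3 there were 538, 469 and 242 rises and 566, 443 and 212 falls.

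The interaction asks whether the knockout effect differs between tumor and normal liver. With limma on all 12 libraries 0 of the 41 genes passed, beside 2.08% of all entries, and 9 had an unadjusted p below 0.05, beside 22.3% of all entries. The C1q chains had the smallest adjusted p, with 1.85 ± 0.51 for C1qb (0.0777), 1.64 ± 0.49 for C1qc (0.0923) and 1.48 ± 0.45 for C1qa (0.0945). All 3 passed without WT tumor 1, the WT tumor with the most macrophage marker RNA. In that fit 218 of the 11671 entries passed above 0 and 152 below 0. Without KO tumor 3, Kng1, Mbl2, C8g and Masp2 passed below 0 and Cpb2 above 0. There 682 of the 11671 entries passed above 0 and 686 below 0, so calls rose over the whole table. For fibrinogen the interaction was 0.24 ± 0.43 for Fga, 0.18 ± 0.46 for Fgb and 0.09 ± 0.44 for Fgg, each smaller than its SE.

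Other genes of both pathways were counted from lists that hold no member. Of 27 further coagulation genes tested, 1 rose and 5 fell in KO against WT livers, beside 9.33% and 8.77% of all entries. Pros1, protein S, had 16.7, 16.5 and 13.2 FPKM in KO livers, against 22.6, 29.6 and 37.8 FPKM in WT livers (-0.89 ± 0.20, adjusted p = 0.0284). Serpine2, an inhibitor of thrombin and plasminogen activators, fell by 1.43. F2r (a thrombin receptor), Pzp and Proz fell and Bdkrb2 rose. In KO tumors against KO livers 8 of the 27 rose and 2 fell, beside 9.09% and 5.17% of all entries, with Anxa2, a plasminogen receptor subunit, up by 3.01 ± 0.34 (adjusted p = 0.00739). Plau (1.42), its receptor Plaur (2.17), F2rl1 (1.93) and Gas6 (1.40) rose as well, and Tfpi2 fell by 2.01. In WT tumors against WT livers 3 rose and 3 fell, beside 8.01% and 8.96%, with Anxa2 up by 2.94 and F2rl1 by 1.58, and Serpine2 and Thbd down. Between tumors 0 of the 27 passed and 8 had an unadjusted p below 0.05, beside 17.6% of all entries.

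Of 25 further complement genes tested, 3 rose and 1 fell in KO against WT livers, beside 9.33% and 8.77% of all entries. The entry shared by C1s1 and C1s2, a protease of the C1 complex, had 371, 401 and 348 FPKM in KO livers, against 237, 237 and 239 FPKM in WT livers (0.64 ± 0.10, adjusted p = 0.0141). C1rb, a copy of the other C1 protease, rose by 1.46 ± 0.31 (adjusted p = 0.0252), Colec11 rose by 0.86 and Susd4, a complement inhibitor of membranes, fell by 1.06. C1rb shares sequence with C1ra, so its value is uncertain. In KO tumors against KO livers 5 rose and 1 fell, beside 9.09% and 5.17%. The rises were Itgb2 and Itgax, chains of the complement receptors on leukocytes, C3ar1, Cd93 and Clu, and Susd4 fell by 2.42. In WT tumors against WT livers Itgax rose and Susd4 fell, beside 8.01% and 8.96%. Between tumors 0 of the 25 passed and 8 had an unadjusted p below 0.05, beside 17.6%.

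The listed regulators of liver secretory genes, which include the feedback inhibitor Socs3 beside known drivers, were mostly lower in KO livers. Of 16 regulators 10 fell and 0 rose in KO against WT livers, beside 8.77% and 9.33% of all entries, with a median of -0.96, beside 0.03. Hnf4a had 179, 152 and 122 FPKM in KO livers, against 234, 306 and 297 FPKM in WT livers (-0.89 ± 0.17, adjusted p = 0.0216). Il6ra, the receptor of interleukin-6, had 7.35, 5.98 and 2.17 FPKM in KO livers, against 21.2, 26.4 and 27.6 FPKM in WT livers (-2.19 ± 0.35, adjusted p = 0.0137), and Socs3, its feedback inhibitor, fell by 2.67. Prox1 and Il6st fell too. In WT tumors against WT livers 9 fell, Hnf4a, Il6ra and Socs3 among them, beside 8.96% of all entries. In KO against WT tumors 0 of 16 passed and 4 had an unadjusted p below 0.05, beside 17.6%, with differences of -0.23 for Hnf4a, -0.77 for Cebpa and 0.59 for Socs3. Cebpa, the C/EBP factor of mature hepatocytes, differed by -0.04 between KO and WT livers and fell in KO tumors against KO livers (-0.84 ± 0.22, adjusted p = 0.0462). The interaction was called for 2 of the 16, Prox1 and Socs3, both above 0, beside 2.08% of all entries called in either direction. The part of these factors in the members' differences was not tested.

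Of 17 acute phase genes, which liver makes in inflammation as it does fibrinogen and C3, Orm3 and Serpina3m fell and 0 rose in KO against WT livers, beside 8.77% and 9.33% of all entries, with a median of -0.65. In KO against WT tumors 0 passed and 8 had an unadjusted p below 0.05, beside 17.6%, with a median of 0.77. In that comparison 6 of the 17 lay below 0, as the fibrinogen chains did. Lcn2, which binds bacterial siderophores, had 2373, 3824 and 1377 FPKM in KO tumors, against 133, 56.2 and 23.6 FPKM in KO livers (5.34 ± 0.65, adjusted p = 0.00807).

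Other cell types differed between the groups too. Summed FPKM of 9 stellate cell and fibroblast markers was 184 to 279 in KO tumors, 68.1 to 79.1 in WT tumors, 75.7 to 127 in KO livers and 45.9 to 72.3 in WT livers. Spp1, osteopontin, was at 3505 FPKM in KO tumor 2, against 32.9 to 632 FPKM in the other libraries. The summed FPKM of hepatocyte markers was lowest in that library, though Apob, Apoc3, Ttr and Cps1 were lower in KO tumor 1. The cholangiocyte keratins Krt19 and Krt7 were at 1.01 and 0.403 FPKM there, below KO tumor 3 (5.13 and 2.57 FPKM). The cholangiocyte markers Sox9 and Epcam were at 11.5 and 1.98 FPKM there, above KO tumor 3 (2.83 and 1.75 FPKM). Cftr was at 0.181 FPKM or less in every library. The part of these markers in the differences of the 41 genes was not tested. In KO livers against WT livers the hepatocyte sums overlapped. There 9 of the 12 hepatocyte markers lay below 0, beside 46.7% of all entries, with a median of -0.315. Ttr was the single one called, with a rise.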

How the data were processed

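Polyadenylated RNA of 12 libraries was measured, in the 4 groups given by the titles. Per the submitters' processing notes, the authors aligned reads with TopHat2 2.1.1 and computed FPKM with Cufflinks 2.2.1, with mm10 named as the build; FPKM per entry were deposited, so read depth is unknown and its counting error cannot be given. Here log2(FPKM + 1) was tested with limma 3.58.1 (R 4.3.3), with a variance trend, on the 11671 of 24553 entries with FPKM of 1 or more in at least 3 of 12 libraries. Comparisons of 2 groups used only their 6 libraries and the interaction used all 12, and p-values were adjusted over all entries tested. The fits were tested on simulated data. Every member is named, and values in each library are given for members called in any fit, the highest member of each role and the C1q chains. From other lists up to 6 called genes with the smallest adjusted p per comparison were eligible, and Hnf4a, Cebpa and Socs3 whatever their values; a few list genes are not reported here. Members and lists were chosen with earlier results of these data known. Alternatives covered pseudocount, filter, scaling, variance trend, zeros, transcript length, a replicate block, 1 fit of all libraries, class membership and leaving out each library.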

Additional observations from a re-analysis of the deposited data

Results flagged for a closer look

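No coagulation or complement gene of the 41 had a knockout effect that differed between tumor and normal liver past the threshold. Of 16 listed regulators of liver secretory genes 2 did, beside 2.08% of all entries, with limma on all 12 libraries. Socs3, the feedback inhibitor of interleukin-6 signalling, had 6.53, 5.99 and 8.32 FPKM in KO tumors, against 4.32, 5.14 and 3.39 FPKM in WT tumors, and 5.01, 3.71 and 1.495 FPKM in KO livers, against 20.9, 23.3 and 33.0 FPKM in WT livers. Its interaction was 3.26 ± 0.41 (adjusted p = 0.0146). Prox1 had 19.6, 21.7 and 14.5 FPKM in KO tumors, against 19.1, 14.1 and 13.3 FPKM in WT tumors, and 9.98, 9.86 and 9.06 FPKM in KO livers, against 23.96, 22.8 and 29.2 FPKM in WT livers. Its interaction was 1.55 ± 0.25 (adjusted p = 0.0238).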

How the results depend on the processing

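Main counts of called genes are given first, then those that moved. In KO against WT tumors 0 coagulation and 0 complement genes passed, and 7 and 5 did in 1 fit of all 12 libraries; leaving out each library gave 0 and 0 to 1 (C8g without KO tumor 3). The coagulation median of -0.36 ran from -0.58 to -0.26 without single libraries.

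In KO against WT livers 6 coagulation genes passed, with 2 under no filter, 3 in 1 fit of all libraries and 0 to 6 without single libraries. Complement had 3, with 0 under no filter, 7 with quantile normalization, 0 in 1 fit of all libraries and 0 to 6 without single libraries. Its median of -0.06 ran from -0.22 to -0.0335 without single libraries. Over all entries the main fit called 1089 up and 1024 down of 11671. No filter called 495 up and 373 down of 18825, and 1 fit of all libraries 527 up and 617 down of 11671.

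In KO tumors against KO livers 1 coagulation gene passed, and 0 with a pseudocount of 5, no filter, a mean FPKM of 5, TPM, quantile normalization or the replicate block, or 0 to 1 without single libraries. The coagulation median of -0.39 was 0.0442 with TPM and 0.11 with quantile normalization, and -0.54 to -0.17 without single libraries. Complement had 6, with 0 under no filter, 3 when the C1q chains were left out and 0 to 8 without single libraries. Its median of -0.15 was 0.28 with TPM and 0.21 with quantile normalization, and -0.31 to -0.06 without single libraries. Over all entries no filter called 393 up and 150 down of 18825, beside 1061 and 603 of 11671 in the main fit.

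In WT tumors against WT livers 1 coagulation gene passed, with 2 under TPM and 0 to 1 without single libraries. In both tumor against liver comparisons the call is the Klkb1 entry, which was not among the entries tested with the length trend removed, so the count of 0 there is not a lost call. Its median of -0.25 was 0.0542 with TPM and 0.13 with quantile normalization, and -0.24 to -0.21 without single libraries. Complement had 4, with 1 under no filter, 2 each with TPM, median-of-ratios scaling and quantile normalization, 1 in 1 fit of all libraries and 0 to 5 without single libraries. Its median of -0.40 was -0.10 with TPM, -0.12 with quantile normalization and -0.54 without the C1q chains, and -0.48 to -0.34 without single libraries. TPM moved the median of all entries to 0.37 in KO and 0.24 in WT mice, against which these values are read. In WT mice the main fit called 935 up and 1046 down of 11671 entries. No filter called 644 up and 613 down of 18825, and 1 fit of all libraries 589 up and 516 down of 11671.

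For the interaction 0 passed in either class, with 0 to 2 coagulation and 0 to 3 complement genes without single libraries. Its complement median of 0.11 ran from -0.0783 without WT tumor 1 to 0.37 without KO tumor 1.

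With the replicate block 0 coagulation and 0 complement genes passed in KO against WT livers, where 91 entries rose and 62 fell over the whole table. Same-numbered libraries did not deviate together in each pair (r from -0.276 to 0.347 in the comparisons by genotype), so the numbers are not taken to pair samples.

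For the 21 results in which a member was called, 376 alternatives were computed. The call was kept in 247 and lost in 129, and none reversed; the cause was not tested. Of 3509 alternatives for members not called, 55 passed.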

Other observations

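Entries that carry a member's symbol but were not used because another entry was higher had low FPKM in the 12 libraries. The second entries of Mbl1 and Masp1 ran from 0.151 to 1.09 and from 2.00 to 5.80 FPKM, the entry shared by C4b and Tnxb from 1.88 to 15.2 FPKM, and the second entry of C6 from 0.355 to 11.4 FPKM.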
